A study of Arabidopsis thaliana with 6 samples.

Results

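The 5 genes described here encode enzymes that break down phospholipids or their remains, or that make the phosphate-free lipids that replace them: MGD2, MGD3, SQD2, PLDZ2 and GDPD1. They were chosen by probe set, 1 per gene, among the 22810 probe sets of the array table, and the choice was made with their difference between the mutant and the wild type known. Their values in that comparison are therefore given as a description, with no test. The platform annotation used here lists no gene for the 5 probe sets. They carry the gene names of the ATH1 array design, namely 246075_at for MGD2 (AT5G20410), 263391_at for MGD3 (AT2G11810), 251143_at for SQD2 (AT5G01220), 258887_at for PLDZ2 (AT3G05630) and 258856_at for GDPD1 (AT3G02040), and all 5 loci are in the RefSeq gene table of Arabidopsis thaliana.

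Total RNA from rosette leaves was hybridised to 6 ATH1 arrays, 1 sample per array, 3 of the wild type Col-2 (stock N907) and 3 of the pho1 mutant (stock N8507), a line obtained by EMS mutagenesis in the Col-2 background. All plants had reached growth stage 3.90 on 0.8% agar that contained 1% sucrose and MS salts, so the medium held nutrients for both groups, and the growth room was kept at 24 °C and 80% humidity with 16 h of light. Separate plants or trays are not stated for the replicates, so p-values cover only the variation among these arrays, and that variation may be technical. No probe set used here is paired with PHO1, so the transcript of the mutated gene was not analysed here.

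Plant membranes can exchange phospholipids for galactolipids and sulfolipids when phosphate is short, which frees the phosphate held in the lipid head groups. PHO1 moves phosphate out of root cells into the xylem, and leaves of the pho1 mutant are known to be short of phosphate although the roots have access to it. In this exchange phospholipases take phospholipids apart, and phosphodiesterases split their deacylated remains. Glycolipid synthases in the plastid envelope use diacylglycerol.

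All 5 genes, chosen with this comparison known, gave far higher signals in pho1 leaves than in wild-type leaves, and in none of them did the groups overlap. Every pho1 array exceeded every wild-type array in 10.8% of all tested probe sets, and the reverse held in 9.03%. The ratio of the group mean signals was 12.3 for SQD2, 18.2 for MGD2 and 44.0 for MGD3. No ratio is given for PLDZ2 and GDPD1, whose wild-type means lay under the limit of the filter on dim probe sets, a signal of 17.4. The wild-type means of MGD2 and MGD3, 24.1 and 20.7, lay little above that limit, so the size of their ratios rests on dim signals. On the log2 scale used for all differences below, log2(signal + 10), the 5 differences lay between 3.55 and 6.27 with a median of 4.33, where the median of all 15922 tested probe sets was -0.02. The signals are linear MAS5 intensity units, in which each array's trimmed mean is close to 100. In bulk leaf tissue, fewer cells of a type and less RNA per cell cannot be told apart.

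**Figure D1:**
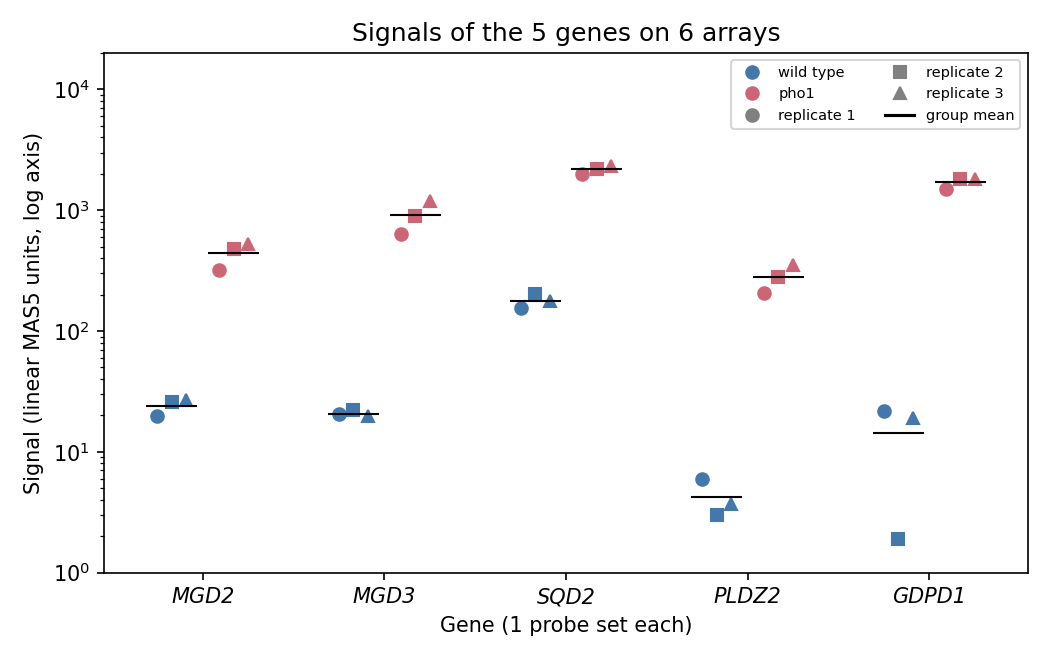
Signal of each gene on each array, in linear MAS5 units on a log axis, with wild type in blue, pho1 in red, a marker shape per replicate number and a black line at the group mean. In each of the 5 genes the 3 pho1 arrays lie above the 3 wild-type arrays, and the GDPD1 signal of wild type replicate 2 (1.90) lies apart from the other GDPD1 values of wild type.

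Among the glycolipid synthases, MGD2 and MGD3 encode the type B monogalactosyldiacylglycerol synthases of the outer plastid envelope, which add galactose to diacylglycerol. The MGD2 signals were 19.8, 25.8 and 26.8 in wild type replicates 1, 2 and 3 and 321.8, 472.7 and 525.0 in pho1 replicates 1, 2 and 3. The groups lay far apart, and the spread within each was small beside the gap. The means were 24.1 ± 3.79 in wild type and 439.8 ± 106 in pho1 (SD, n = 3 each). The log2 difference was 3.70 ± 0.21 (SE).

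The MGD3 signals were 20.4, 22.0 and 19.6 in wild type and 636.4, 897.5 and 1191.1 in pho1. The wild-type arrays thus lay close together, while the pho1 arrays spread over 1.87 times from the lowest to the highest. The means were 20.7 ± 1.22 and 908 ± 278 (SD, n = 3 each), and the log2 difference was 4.86 ± 0.23 (SE). The difference of MGD3 exceeded that of MGD2 in each replicate number, by 0.93 in replicate 1, 1.07 in replicate 2 and 1.48 in replicate 3. Whether probes of either gene also bind the transcript of its close relative was not tested.

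SQD2 encodes the sulfolipid synthase, which transfers sulfoquinovose to diacylglycerol in the last step of sulfolipid synthesis. Its signals were 153.5, 201.7 and 177.1 in wild type and 1995.0, 2204.8 and 2340.0 in pho1. SQD2 was the only one of the 5 with a wild-type signal above the median of its array, and at least 81.2% of the probe sets on each wild-type array were dimmer. In pho1 at least 99.1% were dimmer, and the pho1 arrays differed by no more than 1.17 times. The means were 177 ± 24.1 and 2179.9 ± 174 (SD, n = 3 each), with a log2 difference of 3.55 ± 0.18 (SE), the smallest of the 5 on this scale.

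Of the genes for phospholipid breakdown, PLDZ2 encodes phospholipase D zeta 2, which cuts the head group from phospholipids and leaves phosphatidic acid. The PLDZ2 signals were 5.9, 3.0 and 3.7 in wild type and 206.6, 280.4 and 352.7 in pho1. The wild-type signals were among the dimmest of their arrays, with no more than 15.8% of the probe sets below them, and in pho1 at least 85.9% were below. The means were 4.2 ± 1.51 and 279.9 ± 73.1 (SD, n = 3 each), and the log2 difference was 4.33 ± 0.21 (SE).

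GDPD1 encodes a glycerophosphodiester phosphodiesterase, which splits the deacylated remains of phospholipids into glycerol 3-phosphate and the free head group alcohol. Its signals were 21.7, 1.9 and 19.2 in wild type and 1506.1, 1816.0 and 1820.9 in pho1. Wild type replicate 2 was lower than the other wild-type arrays by a wide margin, and the pho1 arrays lay within 1.21 times of each other. The means were 14.3 ± 10.8 and 1714 ± 180.4 (SD, n = 3 each), with a log2 difference of 6.27 ± 0.35 (SE), the largest of the 5 on this scale. Without wild type replicate 2 it was 5.82.

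Only 34 of the tested probe sets, 0.214%, differed upward by as much as SQD2 or more, and the 5 genes held ranks 3, 10, 15, 28 and 34 among them. All 5 were among the 417 probe sets called higher in pho1 (2.62% of those tested; limma, adjusted p under 0.05) and among the 10.8% in which every pho1 array exceeded every wild-type array (the reverse held in 9.03%). Nothing is read from these counts, since the comparison was used to choose the genes. All 5 passed the filter on dim probe sets. PLDZ2 and GDPD1 had a wild-type mean under the filter's limit of 17.4 and passed it through their pho1 signals.

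**Figure D2:**
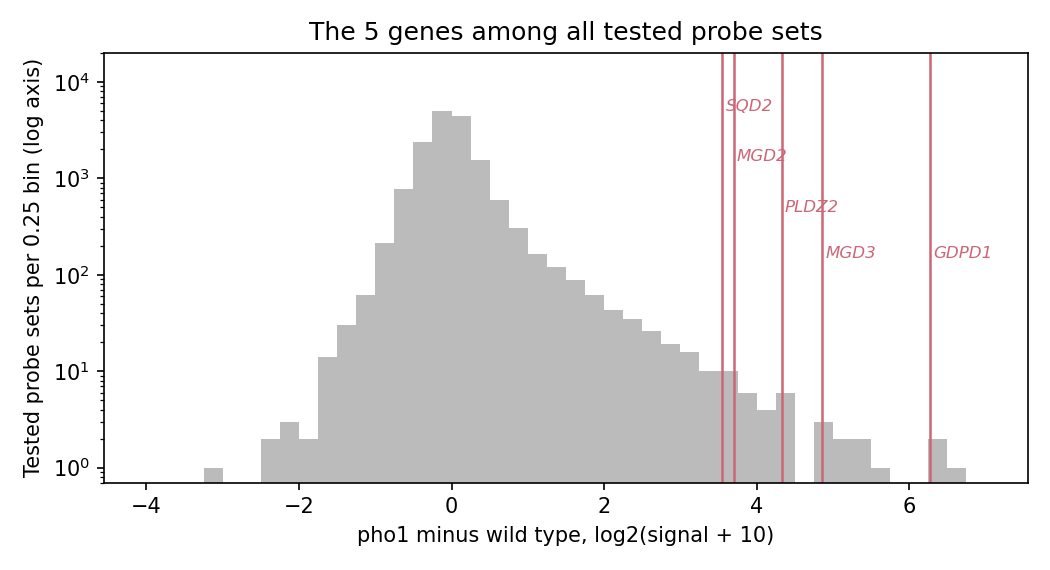
Number of tested probe sets by the difference between pho1 and wild type on the log2(signal + 10) scale, in bins of 0.25, with the count on a log axis. Red lines mark the 5 genes, which lie between 3.55 and 6.27 in the upper tail.

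The size and order of the differences rested in part on the offset of 10 that was added before the log. With an offset of 2 the differences were 7.09 for GDPD1, 5.50 for PLDZ2, 5.28 for MGD3, 4.06 for MGD2 and 3.61 for SQD2. With an offset of 50 they were 4.79 for GDPD1, 3.72 for MGD3, 3.30 for SQD2, 2.70 for MGD2 and 2.58 for PLDZ2. MGD3 stayed above MGD2 under all 3 offsets. GDPD1 had the highest value under each of them, while PLDZ2, the dimmest in wild type, moved from the second place to the last. As the wild-type means of both PLDZ2 and GDPD1 lay under the filter's limit, the size of their differences and their places among the 5 are not settled by these arrays. The wild-type means of MGD2 and MGD3 lay little above that limit, and the size of their differences also depended on the offset.

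**Figure D3:**
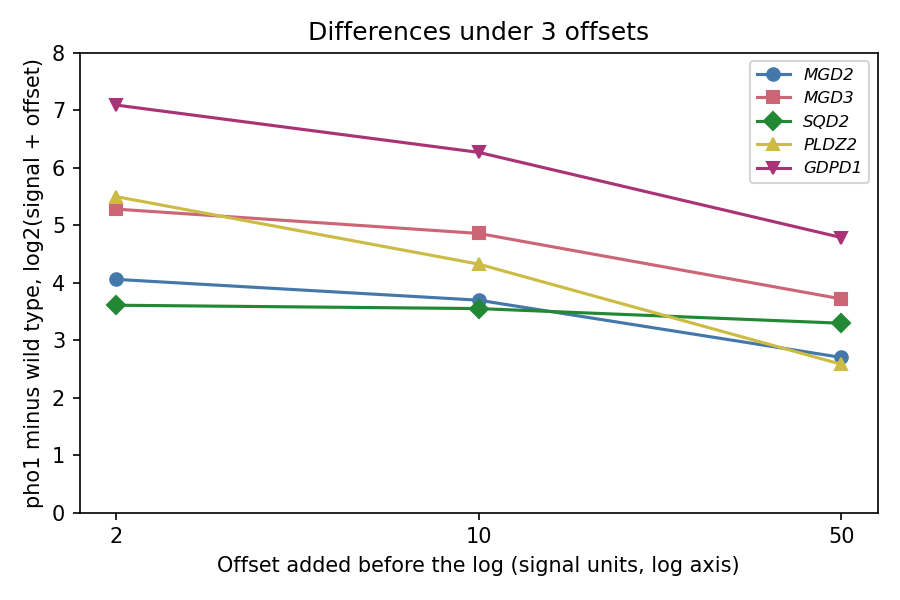
Difference between pho1 and wild type for each gene on the log2(signal + offset) scale, against the offset in signal units on a log axis. The line of PLDZ2 drops from 5.50 to 2.58 and crosses those of MGD3, MGD2 and SQD2, whereas SQD2, the brightest of the 5 in wild type, moves only from 3.61 to 3.30.

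Both replicate 1 arrays stood apart from the other 4. Over 24 probe sets of the spiked-in bacterial transcripts dap, lys, phe and thr, the median signal was 3.75 on the wild-type array of this number and 2.10 on the pho1 array, where the other arrays had 43.9 to 88.3. The ratio of actin signals from the 3' and 5' ends, a measure of RNA integrity, was 2.19 and 3.01 on these arrays and 1.51 to 1.89 on the others. Median signals of all arrays lay between 41.2 and 46.5.

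The 5 genes were higher in pho1 within each replicate number, with and without replicate 1. Their differences ran from 3.48 to 5.58 in replicate 1, from 3.39 to 7.26 in replicate 2 and from 3.65 to 5.97 in replicate 3, where the medians of all tested probe sets were -0.02, 0.02 and -0.04. In MGD2, MGD3, PLDZ2 and GDPD1 the smallest of the 3 differences was that of replicate 1, and in SQD2 that of replicate 2. In replicates 2 and 3 on their own, the differences were 3.81 for MGD2, 5.08 for MGD3, 3.52 for SQD2, 4.60 for PLDZ2 and 6.62 for GDPD1.

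**Figure D4:**
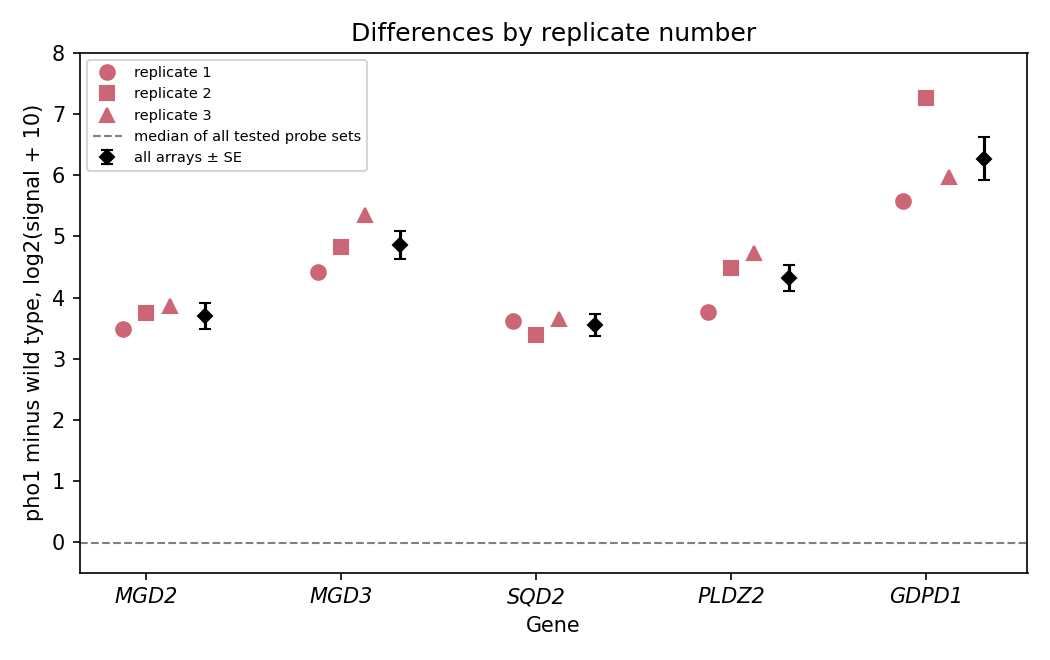
Difference between pho1 and wild type on the log2(signal + 10) scale for the arrays of each replicate number (red) and for all arrays with its SE (black), beside the median of all tested probe sets (dashed line). SQD2 varied least between replicate numbers (SD 0.14) and GDPD1 most (SD 0.88).

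In all 5 genes the pho1 array of replicate 1 gave the lowest and that of replicate 3 the highest of the pho1 signals. This order, seen only after the values were known, was shared by 23.5% of all tested probe sets and by 56.6% of those called higher in pho1. The wild-type arrays showed no such shared order: the lowest signal came from replicate 1 for MGD2 and SQD2, from replicate 2 for PLDZ2 and GDPD1 and from replicate 3 for MGD3.

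Over the 6 arrays the log2 values of any pair of the 5 genes correlated at 0.98 to 0.999 (Pearson r), a description of genes chosen for the same contrast. After the group means were taken out, the values of the pairs ran from -0.65 to 0.90, with a median of 0.51. MGD3 correlated at 0.90 with PLDZ2 and at 0.87 with MGD2, and SQD2 at 0.18 with PLDZ2. The corresponding values of GDPD1 lay between -0.65 with SQD2 and 0.44 with PLDZ2, and they include its signal of 1.9 in wild type replicate 2. Over the 3 pho1 arrays alone, GDPD1 correlated at 0.90 with MGD3 to 0.98 with MGD2. With 3 values per gene, the shared order of the pho1 arrays by itself favours a high r, so nothing is read from it. All of these values come from the same 6 arrays.

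The pattern of the 5 genes over the 6 arrays, taken as the mean of their centred and scaled log2 values, was compared with that of every other tested probe set. A Pearson r of at least 0.99 was found for 49 of them, 0.308%, of which 24 had a single named gene. The 5 genes were chosen for their contrast, so a high r can follow from a clear group difference alone. The likeness is therefore a description, and likeness within the groups was not examined for these probe sets. The most alike was AT1G08310, which encodes an alpha/beta hydrolase, with r = 0.999 and signals of 6.0, 2.8 and 6.8 in wild type and 371.0, 526.0 and 652.1 in pho1. The next were AT3G61410, GAT1_2.1, AT1G67600, AT2G30540, AT5G20400, AT5G63130 and AT1G72890, with r from 0.996 to 0.999 and log2 differences from 2.58 for AT3G61410 to 4.33 for GAT1_2.1. Both had wild-type signals near the dim end of the arrays, with means of 1.43 and 3.03, and their differences followed the offset, with 1.07 and 2.51 at an offset of 50. The wild-type means of AT1G08310 and AT1G67600, 5.2 and 9.87, also lay under the filter's limit of 17.4. Their differences of 5.09 and 3.29 became 3.33 and 1.97 at that offset. Leaving out 1 array kept 4 to 7 of these 8 among the first 8, and replicates 2 and 3 on their own kept 1, so the ranking within the group of like genes depends on the arrays used.

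One of these genes, AT5G20400, is also the nearest protein-coding gene on one side of MGD2 in the RefSeq gene table. Its signals were 19.7, 15.4 and 19.3 in wild type and 144.9, 194.8 and 247.8 in pho1. The difference was 2.84 ± 0.21 on the log2 scale (SE), with an adjusted p of 3.8e-04 in limma. It was called under each of the 16 alternative settings, at 1.83 with the offset of 50 to 3.27 with the offset of 2. As in MGD2, the groups did not overlap and the pho1 array of replicate 1 was the lowest. CHR42, the nearest gene on the other side, was too dim to be tested, at 9.90 ± 1.75 in wild type and 10.3 ± 1.64 in pho1 (SD, n = 3 each).

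For the 3 nearest protein-coding genes on each side of the 5 genes, 11 of 30 had a named probe set and 7 were tested. AT5G20400 was the only one called, beside 2.96% of all tested probe sets called in either direction. The other 6 lay between -0.59 for AT3G02060 near GDPD1 and 0.54 for AT3G05640 next to PLDZ2. Both of these passed without wild type replicate 1, at -0.90 (limma adjusted p = 0.045) and 0.93 (0.032). They also passed in replicates 2 and 3 alone, at -0.77 and 0.85 (limma adjusted p = 0.012 each). In that setting 19% of all tested probe sets were called. AT5G01210, next to SQD2, had 92.4 ± 9.64 in wild type and 72.2 ± 18.1 in pho1 (SD, n = 3 each) and did not pass, at -0.34 (limma adjusted p = 0.50). The neighbours were chosen by position, after the other results had been seen.

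The other genes of membrane lipid exchange and phosphate supply could be followed only in part. Of 8 lists with 132 entries, which include the 5 genes, 15 loci had a named probe set and 14 of them were tested, with 15 probe sets. In these, 1 gene rose and 2 fell, beside 2.62% and 0.345% of all tested probe sets. The lists of galactolipid and sulfolipid synthesis, of phospholipid breakdown and of phosphate transport had no named probe set, so the other enzymes of the steps that the 5 genes belong to, such as MGD1, DGD1, SQD1 and NPC4, were not analysed here.

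Phospholipid synthesis had 7 tested genes of 28 entries, of which none rose and 2 fell, with a median difference of 0.03, where 0.345% of all tested probe sets fell. The lists were chosen with earlier results of these data known, so the count is a description. Both genes that fell encode methyltransferases that make phosphocholine for phosphatidylcholine. NMT3 had signals of 570.4, 982.5 and 787.4 in wild type and 134.9, 77.2 and 39.6 in pho1, and its log2 value fell by 3.17 (limma adjusted p = 0.0040). In pho1 its lowest signal came from replicate 3, where MGD2, MGD3, SQD2, PLDZ2 and GDPD1 were highest. PMEAMT had 684.0, 899.3 and 626.1 in wild type and 305.5, 333.9 and 243.6 in pho1. It fell by 1.29 (limma adjusted p = 0.017), and this call ended without wild type replicate 2 (adjusted p = 0.085), pho1 replicate 2 (0.066) or pho1 replicate 3 (0.093). CCT1, named after its values were seen, encodes the enzyme of the next step, which joins phosphocholine to a cytidine carrier, and had 109 ± 23.5 in wild type and 231 ± 57.5 in pho1 (SD, n = 3 each). Its log2 difference of 1.00 did not pass in limma (adjusted p = 0.071), but did with replicate numbers as a block (0.034) and without pho1 replicate 1 (0.018). CCT1 also passed in replicates 2 and 3 alone, at 1.22 (limma adjusted p = 0.0072), where 19% of all tested probe sets were called.

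ALA10, a lipid flippase, was the only tested gene of the 6 on the list of lipid transfer to the plastid, and it rose. Its signals were 98.6, 72.4 and 83.3 in wild type and 148.9, 205.3 and 228.2 in pho1, and the rise was 1.1 ± 0.20 on the log2 scale (SE), with a limma adjusted p of 0.029. The call of ALA10 ended with no filter (adjusted p = 0.056) and without wild type replicate 2 (0.14), wild type replicate 3 (0.095), pho1 replicate 2 (0.14) or pho1 replicate 3 (0.14). For the use of glycerol 3-phosphate, the product of GDPD1, 1 gene of 9 was tested: GPDHC1, a glycerol 3-phosphate dehydrogenase, differed by -0.28 (limma adjusted p = 0.51), and by -0.48 in replicates 2 and 3 alone, where it passed (0.048). In that setting 19% of all tested probe sets were called in either direction.

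None of the 4 tested probe sets of phosphate starvation signalling (3 loci of 19 entries, median 0.42) and neither of the 2 of fatty acid supply (18 entries, median 0.02) passed the test. The transcription factor gene WRKY6 was at 0.99, with a limma adjusted p of 0.37. This became 0.034 when replicate numbers were a block and 0.049 without pho1 replicate 1. The wild-type mean signal of WRKY6, 12.8, lay under the filter's limit of 17.4. It had no test with the filter at the 50th percentile or without pho1 replicate 3. Its difference was 0.46 with the offset of 50 and 1.38 with the offset of 2. LPR2, a multicopper oxidase gene of the root response to low phosphate, differed by 0.75 (adjusted p = 0.18, and 0.034 without wild type replicate 1). FATA differed by 0.03 and FATB by 0.01, both acyl carrier protein thioesterases. In replicates 2 and 3 alone, LPR2 passed at 1.03 (limma adjusted p = 0.0087) and WRKY6 at 1.17 (0.011). In that setting 19% of all tested probe sets were called.

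**Figure D5:**
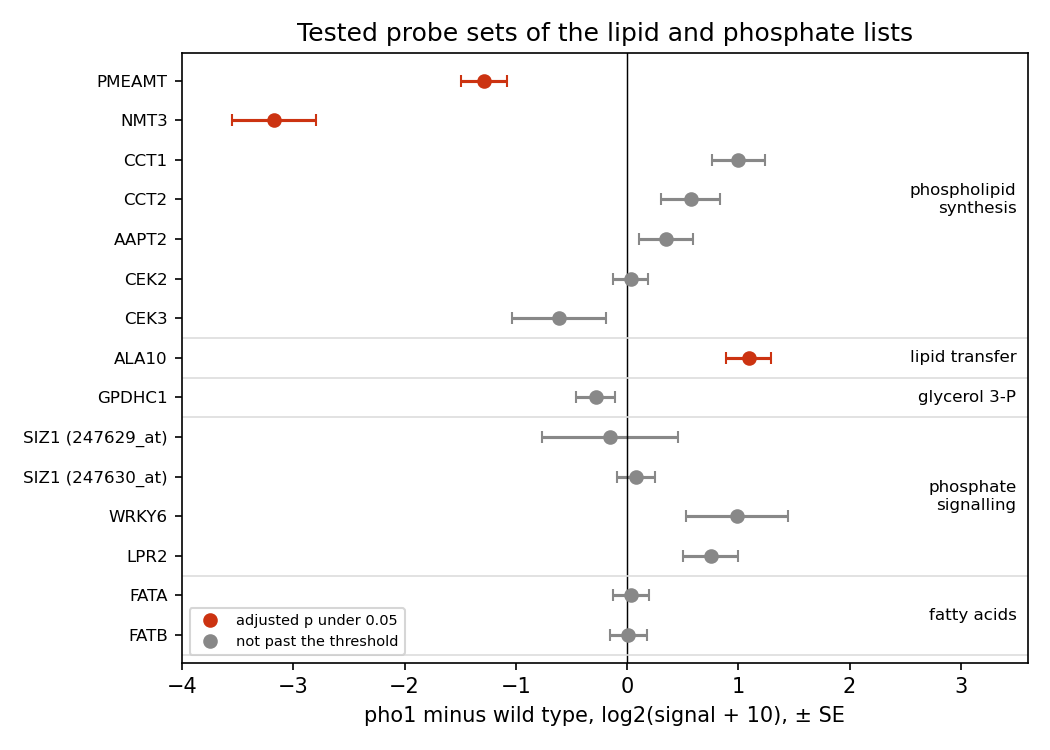
Difference between pho1 and wild type on the log2(signal + 10) scale with its SE for the 15 tested probe sets of the lipid and phosphate lists, in red where the adjusted p was under 0.05. NMT3 and PMEAMT lie below 0 and ALA10 above, and the other 12 did not pass the test.

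The leaf origin of the samples could be seen in 4 named genes of the 12 on the photosynthesis list. RCA, which encodes Rubisco activase, had 3813 ± 1043 in wild type and 3901 ± 1072 in pho1, and LHCB4.2, a light-harvesting protein gene, had 3334 ± 1568 and 3868 ± 904 (SD, n = 3 each). The other members, named after their values were seen, lay lower in pho1 without passing the test: SBPASE, a Calvin cycle phosphatase gene, had 2375 ± 225 and 1666 ± 570.1 (limma adjusted p = 0.39) and PRK, the phosphoribulokinase gene, 3359.8 ± 996 and 2956 ± 1179 (adjusted p = 0.84). In replicates 2 and 3 alone SBPASE differed by -0.80 and passed (limma adjusted p = 0.019), in a setting where 19% of all tested probe sets were called. The summed signal of the 4 was 10174 to 17047 in wild type and 9212 to 16463 in pho1. On the root list, 2 of 6 markers were named and neither was at 0, with a sum of 186 to 417 in wild type and 305 to 576 in pho1. PYK10, a beta-glucosidase abundant in roots, made up most of it and differed by 0.80 (limma adjusted p = 0.35), and EXP7 was too dim to be tested, at 20.9 ± 9.39 in wild type and 13.2 ± 12.2 in pho1. FAMA of guard cells differed by 0.28 (adjusted p = 0.53) and TRY of trichomes by -0.54 (adjusted p = 0.35), each the only named marker of 3, and the vascular and flower lists had none named. The part of these cell types in the differences of the 5 genes was not tested.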

How the data were processed

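The authors deposited a linear intensity per probe set. The submitters' processing notes name MAS5, with no version in the sources used here. The trimmed means of the arrays (2% off each end) lay at 100.01, so the arrays had been scaled before deposit. No detection calls were used. Precision is limited by the number of arrays. The 64 control probe sets were left out. Arrays were brought to a common trimmed mean, log2(signal + 10) was taken, and the dimmest 30% of the 22746 remaining probe sets by mean log2 value were left out and 15922 tested with limma 3.58.1 in R 4.3.3 (lmFit, eBayes with an intensity trend, two-sided, Benjamini-Hochberg over all tested probe sets, threshold 0.05). Plots were drawn with matplotlib 3.10.9.

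Genes were named through the platform annotation and the RefSeq gene table of TAIR10.1; 13436 of 13513 probe sets with 1 listed gene matched a locus. Named are the 5 genes, up to 4 called genes per list or else the 2 with the smallest p, the 8 most alike genes, the 2 brightest leaf markers and the other markers. The members and lists were chosen with earlier results of these data known. The deviations of same-numbered arrays from their group means correlated at 0.42, 0.22 and 0.39, so same-numbered arrays were treated as pairs; that pairing comes from the data, not the labels, and wild type replicate 3 also correlated at 0.33 with pho1 replicate 2. The main fit has no block. Alternatives were other offsets, scalings and filters, no trend, the replicate block, each array left out, and replicates 2 and 3 alone.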

Additional observations from a re-analysis of the deposited data

How the results depend on the processing

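The log2 differences of MGD2, MGD3, SQD2, PLDZ2 and GDPD1 were 3.46 or more under each alternative but the offset of 50. With that offset they were 2.70, 3.72, 3.30, 2.58 and 4.79, and with the offset of 2 those of MGD2, MGD3, PLDZ2 and GDPD1 were 4.06, 5.28, 5.50 and 7.09. With each array left out in turn they ranged from 3.56 to 3.90 for MGD2, 4.64 to 5.09 for MGD3, 3.46 to 3.64 for SQD2, 4.15 to 4.52 for PLDZ2 and 5.82 to 6.53 for GDPD1. The call counts moved more than these values. The 472 calls (417 higher, 55 lower) became 289 with no filter (263 and 26), 1057 with the replicate block (788 and 269) and 3021 in replicates 2 and 3 alone (1547 and 1474), and leaving out 1 array gave 161 to 1040 (156 to 760 higher, 3 to 280 lower). The 3 called probe sets of the pathway lists became 5 with the replicate block, 7 in replicates 2 and 3 alone and 1 to 5 with an array left out. Of the 8 most alike genes, 1 stayed among the first 8 in replicates 2 and 3 alone and 4 to 7 with an array left out. The replicate block changed no other call of a named gene than those of CCT1 and WRKY6. Among the 36 tested probe sets of the lists, the neighbours and the most alike genes, a call was lost 8 times and gained 14 times over the 16 alternatives, and no called direction turned where a test was made. In 12 of the 576 combinations the probe set was under the filter and had no test, among them 5 for AT3G61410. Its signals were 1.2 to 1.6 in wild type and 50.3 to 63.4 in pho1, and its mean log2 value lay under the filter in these 5. Its call was therefore absent with the offset of 2, with the filter at the 50th percentile and without any 1 of the pho1 arrays. Wild type replicate 2, at 1.9 beside 21.7 and 19.2 in replicates 1 and 3, brought the GDPD1 mean under the filter's limit. Signal over background limits the size of the GDPD1 difference and that of PLDZ2, whose wild-type signals were near the dim end of the arrays. It also limits the size of the differences of MGD2 and MGD3, whose wild-type means of 24.1 and 20.7 lay little above the filter's limit.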
